A study of Mus musculus with 6 samples.

Results

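The genes described here are the receptors and ligands of the epidermal growth factor (EGF) system in the obstructed mouse ureter. They were taken by gene name, from the non-control spots of the arrays: the receptors Egfr, Erbb2 and Erbb3 and the ligands Egf, Tgfa, Hbegf, Areg, Ereg, Btc and Epgn. All 10 had probes on the array, 20 in all, and 9 of the 10 genes passed the filter on dim probes, among 22260 genes tested. Ureters were taken 4 days after unilateral ureteral obstruction (UUO), an operation that ties off 1 ureter, from mice aged 2 months on a C57BL/6N background. The 3 samples of the first group were labelled Col17a1-WT and all were male. The 3 samples of the second were labelled Col17a1-KO, with replicates 1 and 2 male and replicate 3 female. Every animal had been obstructed, so no unobstructed level is known. What was altered in Col17a1, the gene of the hemidesmosomal collagen XVII, and in which cells, is not in the labels. Total RNA, 0.05 ug a sample, was labelled with Cy3 and hybridised to 1-colour Agilent arrays.

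The EGF system works through 4 related membrane receptors that pair with each other when a ligand binds and then phosphorylate each other's tails. Egfr binds all 7 ligands listed here, Erbb2 has no known soluble ligand and serves as partner, and Erbb3 binds neuregulins, has a very weak kinase and signals through PI3 kinase. The ligands are made as membrane proteins and are released by proteases such as Adam17, after which they act on the same or neighbouring cells. In urothelium, the epithelium that lines the ureter, this system is known for driving proliferation and migration after injury.

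The values are log2 signals in which 0 is the 75th percentile of the array, so a value of 1 is a signal doubled against that point, and values of different probes cannot be set against each other. The 75th-percentile signals lay between 143.7 and 164.9, and no spot was saturated. The Col17a1 probe of higher signal had values from -2.33 to -0.39 in WT and from 0.40 to 0.53 in KO-labelled ureters, and the dimmer probe from -3.34 to -2.70 and from -1.94 to -1.76. That direction is not that of a lost transcript, and its cause was not tested. Whether the probes lie outside the altered part is not known. The group is therefore called KO-labelled, and every direction rests on the labels. Of the tissue markers, all 18 genes of superficial urothelium and all 10 of smooth muscle were measured. WT replicate 2 stood apart on kidney genes, with Slc34a1, which takes up phosphate in the proximal tubule, at -0.69 against -4.99 to -4.29 on the other arrays. WT replicate 1 was the lowest of the 6 arrays for 29.6% of all genes and the highest for 25%.

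The first 30 of the 60 bases of the probes are shown for the genes on which the results turn, 5′ to 3′ as the array files give them. Egfr has 4 probes and Tgfa and Erbb2 have 2, and their agreement within a gene bears on the results.
Egfr, transcript variant 1, chr11:16813815-16813874: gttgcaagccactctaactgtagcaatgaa
Egfr, transcript variant 1, chr11:16812181-16812240: tggagcttatatttagggaactttgggatt
Egfr, transcript variant 2, chr11:16783545-16783604: caacactctggtctggaagtatgcagatgc
Egfr, clone sequence, chr11:16655638-16655697: ccactagttaaacattggtaatctgctttt
Erbb2, chr11:98298394-98298453: gcacttgcacccagactggtctttgtacag
Erbb2, chr11:98298103-98298162: ggctatgccaggaacgtgccctgaggaacc
Erbb3, chr10:128004749-128004808, minus strand: gttgcagatacacactcattacaagccaat
Tgfa, brighter probe, chr6:86159850-86159908: gaacagcctctttctcatagtgtgcgacga
Tgfa, dimmer probe, chr6:86224838-86224897: tggacatacacagaaccaaaccatgagtta
Areg, chr5:91570090-91570149: ctcagaggagtatgataatgaaccacaaat
Ereg, chr5:91522553-91522612: gatagtcatgtaccttgacatagtgaagga
Coordinates are those of the files, in mouse build mm9, and the probes lie on the plus strand unless stated. The files assign each probe to a transcript but do not say whether it lies in an exon, an intron or a UTR, and no annotation of that build was used here. Epgn, Ereg, Areg and Btc are neighbours on chromosome 5 in the RefSeq table, with no other protein-coding gene between them.

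Of the receptors, Erbb3 and Erbb2 were higher in every KO-labelled ureter than in every WT ureter, while Egfr overlapped between the groups. A scale set on urothelium markers, which moved every gene by -0.70, put Erbb3 at -0.10 and Erbb2 at -0.40. The median of all genes moved with them, to -0.70, so by construction their distance from it was unchanged. Of the 9 measured members 7 had higher and 2 lower KO-labelled means, against 49.8% and 50.2% of all genes. Among the 9 measured genes, 4 did not overlap between groups, all with higher KO-labelled values (Erbb2, Erbb3, Tgfa and Areg). Over all genes tested 15.4% did not overlap, 7.28% with higher and 8.13% with lower KO-labelled values. No member passed the adjusted threshold in limma, where 0% of all genes did, and 3 of the 9 had an unadjusted p under 0.05 (Erbb3, Tgfa and Erbb2), against 9.06% of all genes. The median difference over the 9 was 0.24 in log2, against -0.00087 over all genes. Probe by probe, 6 of the 15 member probes that passed the filter did not overlap, against 15.6% of all probes, and 4 had an unadjusted p under 0.05, against 9.26%. The plot of members by array shows the values.

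**Figure D1:**
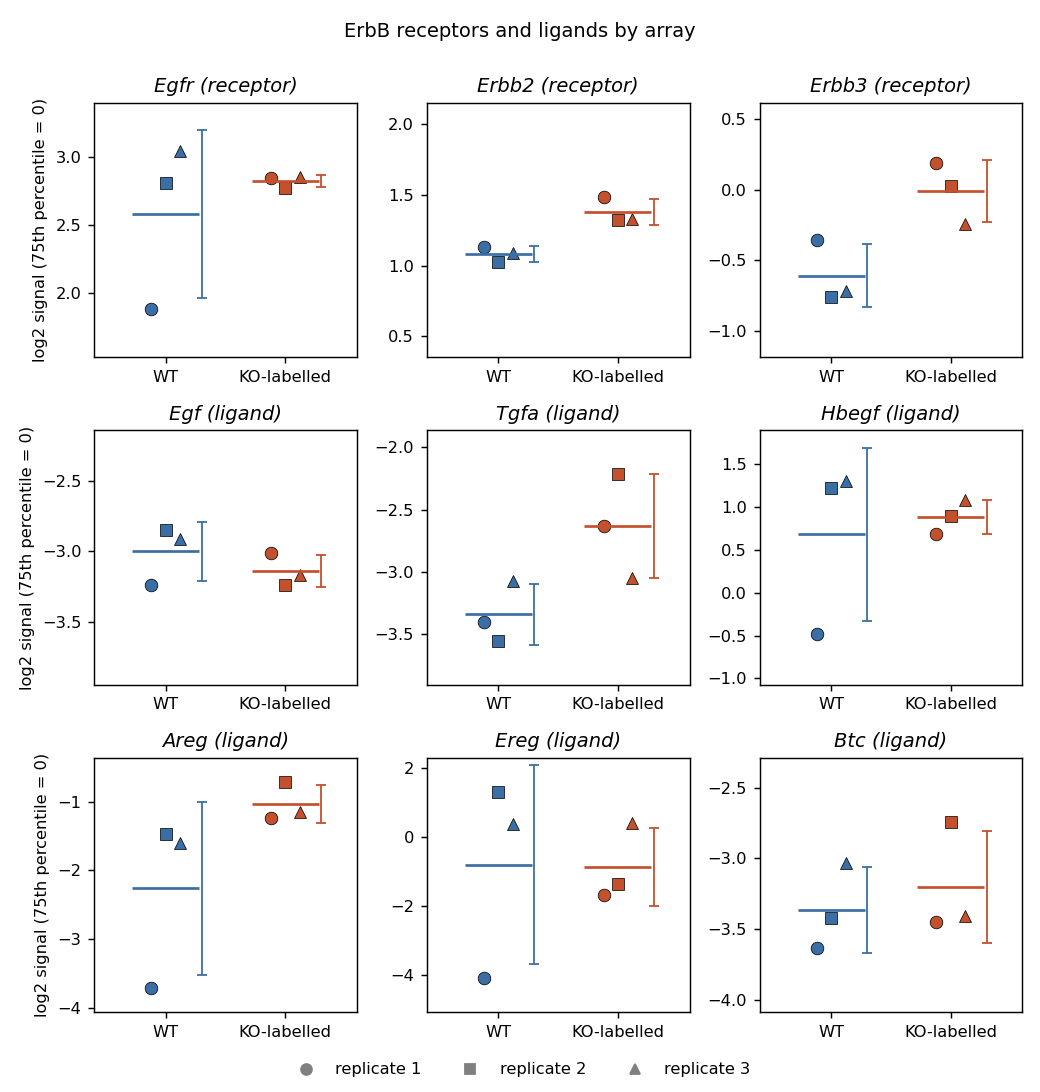
Log2 signal of the 9 measured EGF receptors and ligands (y axis, 0 at each array's 75th percentile) in the 3 WT and 3 KO-labelled ureters; symbols are replicates, horizontal lines the means and vertical bars the SD. Erbb2, Erbb3, Tgfa and Areg do not overlap between the groups, and WT replicate 1 lies far below the other arrays for Areg, Ereg, Hbegf and Egfr.

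Erbb3, the neuregulin receptor with the weak kinase, had values of -0.35, -0.76 and -0.72 in WT replicates 1 to 3 and of 0.19, 0.03 and -0.24 in KO-labelled replicates 1 to 3. The KO-labelled replicate closest to WT was the female, replicate 3. The means were -0.61 ± 0.22 and -0.01 ± 0.22 (SD, n = 3 each). They differed by 0.60 ± 0.17 (standard error, as for all differences here), 95% interval 0.19 to 1.01, or 1.52-fold (limma, adjusted p = 0.454). A further Erbb3 probe was not well above background in any sample.

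Erbb2, the partner receptor without a ligand of its own, had the narrowest range over the 6 arrays among the receptors, 0.46. Its values were 1.13, 1.02 and 1.09 in WT and 1.48, 1.32 and 1.33 in KO-labelled ureters. The means, 1.08 ± 0.05 and 1.38 ± 0.09 (SD, n = 3 each), differed by 0.30 ± 0.10, 95% interval 0.05 to 0.54, or 1.23-fold (limma, adjusted p = 0.490). Its dimmer probe had values of -0.28, -0.73 and -0.43 in WT and -0.13, -0.12 and -0.28 in KO-labelled ureters, and differed by 0.30 ± 0.14. KO-labelled replicate 3 and WT replicate 1 lay nearly level at that probe.

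Egfr, the receptor for all of the ligands, had values of 1.88, 2.81 and 3.05 in WT and of 2.85, 2.77 and 2.85 in KO-labelled ureters at its brightest probe. The KO-labelled values lay within 0.08 of each other, inside the WT range, and WT replicate 1 was the lowest of the 6. The difference was 0.24 with a 95% interval of -0.48 to 0.97 (limma, adjusted p = 0.833). The other probes differed by 0.05 (variant 1), -0.21 (variant 2) and -0.16 (clone sequence), with 95% intervals that all contained 0. The sign therefore depended on the probe, and without WT replicate 1 it was negative at the brightest probe too, at -0.105.

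**Figure D2:**
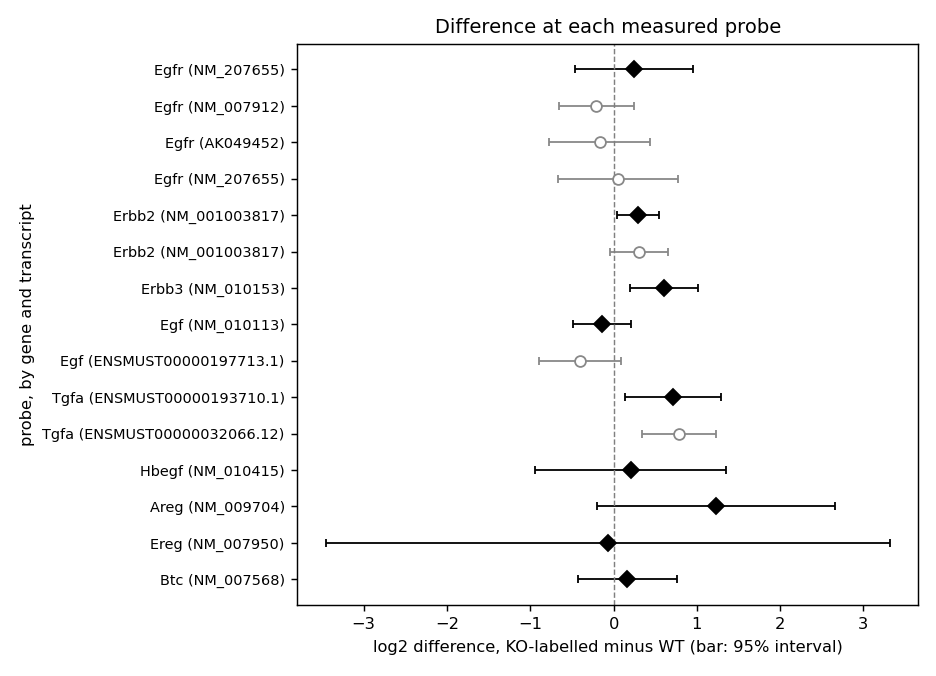
Log2 difference, KO-labelled minus WT (x axis), at each of the 15 member probes that passed the filter (y axis, by gene and transcript); filled diamonds are the brightest probe of a gene, open circles its other probes and bars the 95% intervals of the fit over all probes. Both Tgfa probes, 1 Erbb2 probe and the Erbb3 probe have intervals above 0 before adjustment, and Ereg has the widest interval.

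The log2 ratios between probes of Egfr were compared after the values were seen. The log2 ratio of the brightest probe, of transcript variant 1, to the probe that the array files assign to variant 2 was 1.63, 2.02 and 2.25 in WT and 2.45, 2.54 and 2.28 in KO-labelled ureters. The groups did not overlap, with a gap of 0.02 between the nearest arrays, and the ratio differed by 0.45 ± 0.17 (limma over 12808 probe pairs, adjusted p = 0.456). Without WT replicate 1 the ratio differed by 0.28. With the second variant 1 probe in place of the brightest, the ratio to the variant 2 probe was 0.11, 0.54 and 0.56 in WT. In KO-labelled ureters it was 0.60, 0.61 and 0.78. Of the 6 pairs that set the brightest probe of a member against another of its probes, which leaves out the ratio with the second variant 1 probe, 2 did not overlap and 1 had an unadjusted p under 0.05, against 16.5% and 10.4% of all pairs, of which 0% passed the adjusted threshold. Whether the probe assigned to variant 2 also detects variant 1 was not tested, so the ratio is not a measure of isoforms.

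The ratio of both measured Egf probes also did not overlap, at 0.20, 0.16 and -0.20 in WT and 0.27, 0.36 and 0.32 in KO-labelled ureters (limma over the same pairs, adjusted p = 0.514). For Tgfa and Erbb2 the probe ratios overlapped and differed by -0.07 and -0.01.

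Tgfa, transforming growth factor alpha, an Egfr ligand that epithelia make for their own use, was higher in the KO-labelled ureters at both of its probes. The brighter probe had values of -3.40, -3.56 and -3.07 in WT and of -2.63, -2.21 and -3.05 in KO-labelled ureters. KO-labelled replicate 3 was 0.02 above WT replicate 3. The difference was 0.71 ± 0.24, 95% interval 0.13 to 1.30, or 1.64-fold (limma, adjusted p = 0.488). The dimmer probe had values of -4.48, -4.56 and -4.35 in WT and of -3.46, -3.51 and -4.07 in KO-labelled ureters, and there the difference was 0.78 ± 0.19 (limma over all probes, adjusted p = 0.435). These probes were dim, with processed signals from 12.2 to 35.5 and from 6.11 to 14.5, and with normexp background correction, which damps low signals, the difference at the brighter probe was 0.19.

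Areg, amphiregulin, a ligand bound to heparan sulphate that is known for its rise in injured epithelium, had the largest difference among the members and a wide interval. Its values were -3.72, -1.47 and -1.60 in WT and -1.24, -0.72 and -1.15 in KO-labelled ureters. The groups did not overlap, but WT replicate 1 lay 2.11 below the next lowest array, while the gap between the highest WT and the lowest KO-labelled array was 0.22. The means, -2.26 ± 1.26 and -1.04 ± 0.28 (SD, n = 3 each), differed by 1.23 ± 0.60, 95% interval -0.23 to 2.69, or 2.34-fold (limma, adjusted p = 0.599). Without WT replicate 1 it was 0.50, without WT replicate 2 it was 1.62, and with normexp background it was 0.52.

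Ereg, epiregulin, the neighbour of Areg, varied most between arrays of all members, over a range of 5.39 in log2. Its values were -4.08, 1.31 and 0.39 in WT and -1.67, -1.35 and 0.42 in KO-labelled ureters, and the processed signal went from 9.27 in WT replicate 1 to 356 in WT replicate 2. Both extremes were WT arrays, and the WT SD of 2.88 exceeded the KO-labelled SD of 1.12. The difference was -0.07 with a 95% interval of -3.53 to 3.40 (limma, adjusted p = 0.993), so these arrays could not resolve even a large difference. Leaving out single arrays moved it from -1.71, without WT replicate 1, to 0.98, without WT replicate 2.

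Hbegf, heparin-binding EGF-like growth factor, which keratinocytes and other epithelial cells release at wounds, had values of -0.48, 1.23 and 1.30 in WT and of 0.68, 0.90 and 1.08 in KO-labelled ureters. WT replicate 1 was the lowest array and the other WT arrays were the highest. The difference was 0.21 with a 95% interval of -0.96 to 1.37 (limma, adjusted p = 0.925), and it was -0.38 without WT replicate 1. A dim second probe, well above background on 4 of the 6 arrays and outside the test, was also lowest in WT replicate 1, at -6.33 against -5.56 to -4.23.

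Egf, the founding ligand, which the distal nephron makes in large amounts, was dim and nearly level. Its brightest probe had values of -3.24, -2.85 and -2.91 in WT and of -3.01, -3.23 and -3.17 in KO-labelled ureters, a range of 0.40, the smallest among the members. The difference was -0.14 with a 95% interval of -0.48 to 0.21 (limma, adjusted p = 0.801), and it went from -0.258 without WT replicate 1 to -0.0603 without WT replicate 2. With normexp background it was -0.0342, and with the mean of the Egf probes -0.271. A second probe differed by -0.40 with a 95% interval of -0.89 to 0.09, and the remaining probe was not well above background in any sample. WT replicate 2, the array with high Slc34a1, was the highest for Egf at the brightest probe, 0.07 above WT replicate 3. On the kidney list 9 of 18 genes were measured, all with lower KO-labelled means, by a median of -0.78. Of these only Lrp2, an uptake receptor of the proximal tubule, did not overlap, at -4.05, -3.99 and -3.99 in WT and -4.66, -5.12 and -4.93 in KO-labelled ureters, where 1 of the 3 arrays had it well above background (limma, adjusted p = 0.398). Also, Umod, Slc12a1 and Slc12a3, the defining transcripts of the thick limb and distal tubule, were not well above background on all arrays of either group. The summed level of the list was 0.35 to 2.55 in WT and 0.35 to 0.82 in KO-labelled ureters, and the part of kidney tissue in the Egf values was not tested.

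Btc, betacellulin, a ligand of Egfr and Erbb4, had values of -3.64, -3.42 and -3.03 in WT and of -3.45, -2.74 and -3.41 in KO-labelled ureters. They overlapped, and the difference was 0.16 with a 95% interval of -0.44 to 0.76 (limma, adjusted p = 0.871). Its other probe was not well above background in any sample. Epgn, epigen, a ligand of skin and other epithelia that binds Egfr weakly, was not well above background in all 6 ureters, with processed signals of 0.931 to 1.697, and was not tested.

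For Areg, Ereg, Hbegf and Egfr the widest departure was that of 1 array, WT replicate 1, rather than of a group. It was the lowest array for 6 of the 9 measured members (Egfr, Egf, Hbegf, Areg, Ereg and Btc), against 29.6% of all genes, a count made after the values were seen. For Egf it was nearly level with KO-labelled replicate 2, at -3.241 against -3.235. At the second Egf probe it was not the lowest, at -3.44 against -3.59 in KO-labelled replicate 2. WT replicate 2 was the lowest for the other 3, Erbb2, Erbb3 and Tgfa, against 18.4% of all genes. Without WT replicate 2 they differed by 0.27, 0.53 and 0.61. That array also had the lowest summed levels of superficial urothelium, 7.97, and of smooth muscle, 8.27. By summed level, WT replicate 1 was the lowest array for the neutrophil, basal urothelium and mesothelium lists. For mesothelium that level, 5.64, was close to that of Krt19 alone, 5.53. As the mean deviation over genes, WT replicate 2 was the lowest for mesothelium, at -0.60, and WT replicate 1 was at -0.04. Also by summed level, WT replicate 1 was the highest for the fibroblast, mast cell and basophil, and T and NK cell lists. Gata3, on the T and NK cell list, is also on the superficial urothelium list. In WT replicate 1 Gata3 was at 3.48 and the summed T and NK level at 3.82. As the mean deviation over genes, KO-labelled replicate 3 was the highest for the T and NK cell list, at 0.35 against 0.24 in WT replicate 1. Of 9 neutrophil genes all were measured, with a summed log2 level of 6.99 in WT replicate 1, of 6.99 to 8.20 over WT and of 7.15 to 8.20 over KO-labelled ureters. Their means were higher in KO-labelled ureters for 6 and lower for 3. The groups did not overlap for 4, the granule protein genes Camp, Ltf and Ngp and the surface marker Ly6g. All 4 were higher at an unadjusted p under 0.05, and 0 passed the adjusted threshold of limma. Over all genes tested 7.28% were higher without overlap and 4.35% were higher at that unadjusted p. Camp differed by 1.17 ± 0.18 and Ltf by 1.99 ± 0.37, while Ngp was well above background on the KO-labelled arrays alone. Ngp thus passed the filter only through the group where it was higher, so its place among the 4 carries no weight. Some genes of the list ran over the arrays more like Ereg, as seen after the values were known. S100a8, a calcium-binding protein abundant in neutrophils, had values of 3.07, 5.68 and 4.49 in WT and of 3.40, 4.47 and 5.70 in KO-labelled ureters. Cxcr2, the chemokine receptor of neutrophils, had values of -1.68, 1.55 and 0.43 in WT and of -0.96, -0.39 and 1.43 in KO-labelled ureters. Like Ereg, S100a8 and Cxcr2 were lowest in WT replicate 1 and had WT replicate 2 and KO-labelled replicate 3 among their 3 highest arrays. Of the basal urothelium list 11 of 12 genes were measured (Sox2 was not), with a summed level of 6.65 to 7.41 in WT and 7.69 to 7.96 in KO-labelled ureters. Of these, 8 had higher and 3 lower KO-labelled means. Krt5, Itgb4 and Col17a1 did not overlap and were higher, and Trp63, the transcription factor of basal epithelial identity, did not overlap and was lower, by -0.32 ± 0.10 (limma, adjusted p = 0.477). Col17a1, which is among the 8 and in the summed level, is the gene by which the groups are labelled. Its difference therefore cannot stand for basal cells. Krt15 and Ngfr, at -0.09 and -0.15, overlapped. The part of neutrophils or basal cells in the ligand values was not tested.

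**Figure D3:**
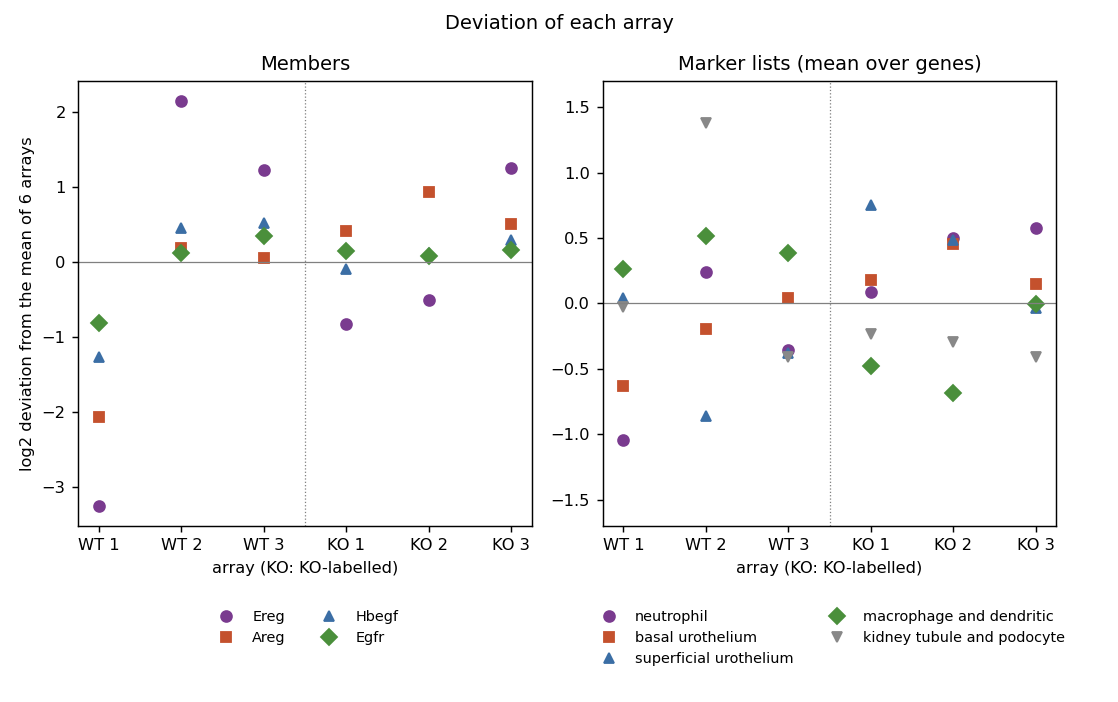
Deviation of each array from the mean of the 6 arrays (y axis, log2) for Ereg, Areg, Hbegf and Egfr (left) and for 5 marker lists, as the mean over their genes (right). WT replicate 1 is lowest for all 4 members and for the neutrophil and basal urothelium lists, and WT replicate 2 is highest for Ereg and for the kidney list.

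Several marker lists had higher KO-labelled values beside Erbb2, Erbb3 and Tgfa. All 18 superficial urothelium genes had higher KO-labelled means, by a median of 0.85, and their summed level was 7.97 to 8.48 in WT and 8.67 to 9.30 in KO-labelled ureters. Of the 18, 5 did not overlap between groups, against 7.28% of all genes that were higher without overlap. The uroplakins Upk1a, Upk1b, Upk2, Upk3a and Upk3b all overlapped. As the mean deviation over the genes, WT replicate 1, at 0.04, lay above KO-labelled replicate 3, at -0.04. All 10 smooth muscle genes had higher KO-labelled means too, by a median of 0.66, with overlapping groups for each. All 5 mesothelium genes had higher KO-labelled means, but Krt19 and Upk3b among them are also on the superficial urothelium list. The median, 0.82, was that of Krt19 itself. Their summed level was 5.64 to 6.16 in WT and 6.50 to 6.81 in KO-labelled ureters. Krt19 alone was at 5.53 to 6.11 and 6.42 to 6.75. In bulk tissue more cells of a type and more RNA per cell cannot be told apart. Set against each array's mean over the 29 measured genes of the superficial and basal urothelium lists, Col17a1 included, which shifted every gene by -0.70, Tgfa differed by 0.02, Erbb3 by -0.10 and Erbb2 by -0.40. The shift is the same for all genes, so the order of the members was the same by construction. Of the dendritic cell and macrophage list, whose cells can also make Areg and Hbegf, all 12 genes were lower, with a median of -0.70 and a summed level of 8.97 to 9.13 in WT and 7.84 to 8.57 in KO-labelled ureters. The part of these cells in the member values was not tested.

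Around the members, differences in the rest of the pathway ran in both directions. Of 81 further pathway genes 79 were measured, 43 with higher and 36 with lower KO-labelled means, and the median difference was 0.06. WT replicate 1 was the lowest array for 41.8% of the 79, against 29.6% of all genes. At an unadjusted p under 0.05 there were 4 higher (4.35% of all genes) and 5 lower (4.71% of all genes), and 0 passed the adjusted threshold of limma. The lists were chosen with earlier results of these data known.

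Among 8 genes of ligand shedding, which frees the ligands from the membrane, 6 were higher and 2 lower. Adam17, the main sheddase of Tgfa, Areg, Ereg and Hbegf, had values of 1.91, 2.05 and 1.81 in WT and of 1.43, 1.48 and 1.74 in KO-labelled ureters, a difference of -0.37 ± 0.13 (limma, adjusted p = 0.495). Rhbdl2, a rhomboid protease of the membrane, had values of -3.00, -2.68 and -2.50 in WT and of -1.71, -1.75 and -2.30 in KO-labelled ureters, and differed by 0.81 ± 0.21 (limma, adjusted p = 0.445). Neither overlapped between groups. Adam12, a metalloprotease, differed by 0.27, and Timp3, which inhibits Adam17, by 0.50, both at an unadjusted p over 0.05.

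Of the remaining ErbB genes, Erbb4, the fourth receptor, had values of 0.59, 0.47 and 0.29 in WT and of 0.16, 0.13 and 0.22 in KO-labelled ureters, opposite in direction to Erbb2 and Erbb3. The difference was -0.28 ± 0.12 (limma, adjusted p = 0.549). Of the neuregulins, the ligands of Erbb3 and Erbb4, Nrg4, Nrg1 and Nrg2 differed by 0.50, 0.33 and 0.30 with overlapping groups, and Nrg3 was not measured. Nrg1 was lowest in WT replicate 1, at 0.61 against 1.27 to 1.81 on the other arrays.

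Among 20 measured receptor brakes and feedback genes, 10 were higher and 10 lower. Cblc, a ubiquitin ligase of epithelia that marks activated receptors for breakdown, had values of 0.93, 0.83 and 1.02 in WT and of 1.63, 1.68 and 1.29 in KO-labelled ureters, and differed by 0.60 ± 0.14 (limma, adjusted p = 0.427). Rnf41, a ubiquitin ligase of Erbb3, had values of -0.96, -0.78 and -0.78 in WT and of -0.51, -0.44 and -0.44 in KO-labelled ureters, and differed by 0.38 (limma, adjusted p = 0.454). Spred3, an inhibitor of the RAS cascade, differed by -0.49 and Ptprj, a receptor phosphatase, by -0.35, with overlapping groups.

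In the cascades downstream, 8 of 18 adaptor and RAS-ERK genes were higher and 10 lower, and 6 of 17 genes of the PI3 kinase, PLC gamma and STAT arms were higher and 11 lower. Hras, a RAS protein, differed by 0.38, Braf, a kinase it activates, by 0.22, Rps6ka3, a kinase below ERK, by -0.35 and Grb2, the adaptor of the receptors, by -0.32. Pik3cb and Pik3ca, catalytic subunits of PI3 kinase, differed by -0.29 and 0.35, Plcg1, phospholipase C gamma, by 0.35 and Akt2, a kinase that PI3 kinase activates, by -0.30. Of 13 measured ERK-responsive transcripts 10 were higher and 3 lower, and none had an unadjusted p under 0.05 or groups that did not overlap. All but Cdc42ep3, Fos and Dusp6 were lowest in WT replicate 1, such as Ier3 at 0.93 against 2.25 to 2.95 on the other arrays. The count of higher means therefore cannot be read apart from that array. The best ranked were Cdc42ep3 at 0.38, Emp1, a membrane protein of epithelia, at 0.25, Fos at -0.59 and Etv4 at 0.33. Fos, an immediate early transcription factor, had values of 1.25, 2.07 and 1.46 in WT and of 0.67, 0.46 and 1.89 in KO-labelled ureters.

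**Figure D4:**
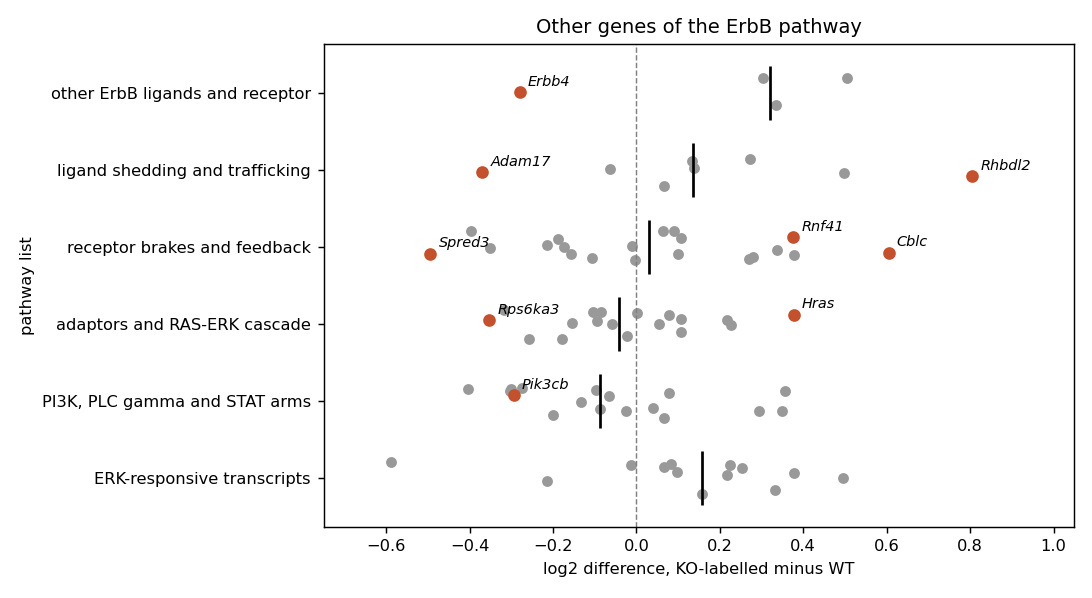
Log2 difference, KO-labelled minus WT (x axis), of each measured gene of 6 ErbB pathway lists (y axis, points spread vertically for legibility); black bars are list medians and named red points have an unadjusted p under 0.05. The medians lie between -0.09 and 0.32, and 0 genes pass the adjusted threshold.

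The promoter of Areg is shown because Areg had the largest difference and, with its neighbour Ereg, the widest range over the arrays. It was taken from RefSeq, build GRCm38.p6, plus strand, as the 250 bases before the start of the gene, chr5:91139349-91139598.
Areg: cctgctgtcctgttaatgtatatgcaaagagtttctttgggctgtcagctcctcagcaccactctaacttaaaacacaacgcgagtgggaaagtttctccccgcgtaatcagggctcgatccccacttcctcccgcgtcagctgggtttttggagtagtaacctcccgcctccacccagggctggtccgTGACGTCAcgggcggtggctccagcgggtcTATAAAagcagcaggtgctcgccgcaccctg
The capitals mark a cyclic AMP response element, TGACGTCA, which is the same on both strands, and a TATA box, TATAAA on the gene's strand, which begin 61 and 31 bases before the start and do not overlap. The promoters of Ereg, Erbb3 and Hbegf were missing from the RefSeq set and were not searched. The table held 8 promoters of the other 7 members. Areg was the only 1 of them with TGACGTCA, which 1.55% of all 32851 promoters hold in the same window, and Areg and Epgn held TATAAA, as 7.59% of promoters do. An AP-1 motif, TGANTCA on either strand, was in 0 of the 8 and in 6.75% of all. These matches describe the letters and were sought after the values were seen.

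The genes most like each member over the 6 arrays were named for the 5 members that spanned more than 1 in log2, among 15865 candidates. For Ereg they were Exoc3l2, Gtf2f1 and Galnt2, with Pearson r of 0.998, 0.998 and 0.997, and for Areg Ddx1, Nrf1 and Maff, with r of 0.999, 0.996 and 0.996. For Hbegf they were Vdr, the vitamin D receptor, Znhit6 and Spata5, with r of 0.997 each, and for Tgfa St14, the epithelial protease matriptase, Serpinb3c and Ly6a, with r of 0.997, 0.997 and 0.996. For Egfr they were Ccl11, the chemokine eotaxin, Gm9465 and Gfpt2, with r of 0.996, 0.995 and 0.990. These are descriptions over 6 arrays that share their scaling, taken as the highest of many.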

How the data were processed

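Arrays of 6 mouse ureters were analysed, 3 per group, 1 slide and 1 scan time. The authors deposited spot intensity values from Agilent Feature Extraction 12.0.3.1, with spatial and multiplicative detrending switched on and surrogates in use for the dimmest spots, per the file headers. Any later scaling by the authors is not stated in the labels.

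Spots flagged as outliers were dropped and spots of a probe averaged. Log2 signals were centred by subtracting the array's 75th percentile, taken over 56605 non-control probes. A probe was kept if all arrays of a group had it well above background, and the brightest stood for its gene, giving 22260 genes. limma (version 3.58.1, lmFit and eBayes, under R 4.3.3) fitted genotype over all genes; p-values were adjusted by Benjamini-Hochberg, with 0.05 as threshold. The fit was tested on simulated data. Each probe was also fitted in its own right over 35069 probes.

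Members, gene lists and alternatives were chosen with earlier results of these data known. The naming rule took all members, up to 4 genes of lowest p in each pathway list, and, for members spanning over 1 in log2, the 3 genes most correlated with each. Alternatives covered background correction, scaling, filters, probe choice, variance model, array weights, sex, a replicate block and each array left out. Only KO-labelled replicate 3 was female, so the fit with sex gave the same differences as leaving that array out, 0.716 for Erbb3 in both. It cannot tell sex from that array. The number of arrays limits the precision, and p-values measure only the spread between these samples.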

Additional observations from a re-analysis of the deposited data

How the results depend on the processing

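No member passed the adjusted threshold of limma under the alternatives run, except under the next 2. Array weights, which ranged from 0.229 for WT replicate 1 to 6.93 for WT replicate 3, called 498 genes and 1 member, Erbb3, at 0.78 (adjusted p = 0.0434). Relative to the urothelium lists, where 26.5% of all genes passed, Egf passed at -0.83 (adjusted p = 0.0498). Over all genes the count was 0 elsewhere except 1 with the replicate block, and with each array left out it was 0 to 1. Relative to those lists every gene moved by -0.70, so by construction Erbb2, Erbb3, Egfr, Hbegf and Btc took values below 0, of -0.401, -0.0968, -0.452, -0.492 and -0.534. Under the other alternatives run Erbb2, Erbb3, Tgfa and Areg kept their sign. Array weights turned Egfr, Hbegf and Btc, at -0.163, -0.433 and -0.152, and the mean of its probes turned Egfr, at -0.0183. Leaving out single arrays took Egfr from -0.105 to 0.478, Hbegf from -0.378 to 0.516, Egf from -0.258 to -0.0603, Btc from -0.0663 to 0.328 and Ereg from -1.71 to 0.984, and leaving out WT replicate 2 with KO replicate 3 gave Ereg 0.342. The cause of the turns outside the urothelium scale was not tested. Same-numbered arrays deviated from their group means with correlations of 0.53, -0.15 and -0.03, so the numbers are not taken to pair the samples, and WT replicates 2 and 3 correlated best with KO-labelled replicates 3 and 2. With the replicate block Erbb3 had an adjusted p of 0.479. Of probe pairs, 0 passed, or 1 with normexp background. Tgfa, Egf and Btc, and Areg and Ereg in WT replicate 1, were dim, so low signal over background limits those values.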
